A study of Danio rerio with 4 samples.

Results

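Coagulation genes of the liver were followed in *grwd1* crispant zebrafish larvae. The genes were *fga*, *fgb*, *fgg*, *f2*, *f5*, *f7*, *f9b*, *f10*, *plg* and *serpinc1*, and every row of the deposited count table with one of these symbols was taken, in capitals or not. The 10 symbols gave 12 rows of the 32520 genes in the table, because 3 gene IDs carry the symbol *f7*. The row named F9 was counted as *f9b*, since *f9a* has a row of its own. All 12 rows passed the filter on low counts, which left 20479 genes for testing.

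RNA-seq compared whole larvae at 8 days post fertilization (dpf), in 2 libraries of *grwd1* crispants and 2 libraries of wild-type (wt) larvae. Crispants are the injected founder animals themselves, made here with Cas9 mRNA and a pair of guides injected at the one-cell stage. They are mosaic, so the cells of a pool can differ in whether and how *grwd1* was edited. Each group was a pool of 15 larvae, and it is not stated whether a group's libraries are separate pools or whether wt larvae were injected, so p-values measure the spread between libraries, which may be technical. GRWD1 is a WD40 repeat protein that takes part in assembly of the large ribosomal subunit. The guides, which the study placed in the first and the last exon of *grwd1*, are shown because they define the tested animals.
Guide 1: gatacatgcggtaagcggag
Guide 2: actccaccgacagatcccat

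Hepatocytes secrete nearly all clotting proteins of the plasma. Tissue factor and factor VIIa start the cascade, factors IXa and Xa carry it on, and factor Xa with its cofactor factor Va cuts prothrombin to thrombin. Thrombin turns fibrinogen, a protein of alpha, beta and gamma chains, into fibrin. Antithrombin blocks thrombin and factor Xa, and plasmin, made from plasminogen, dissolves the clot. Prothrombin and factors VII, IX and X need a vitamin K-dependent modification before they can bind membranes. Zebrafish have the same core pathway, with thrombocytes in place of platelets.

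The libraries held 18510962 and 15916216 counts in crispants, against 16086482 and 18619802 in wt larvae. *grwd1* itself was at 6.40 and 6.34 CPM (a gene's counts relative to the total of its library, with totals scaled by TMM factors) in crispants, against 25.0 and 24.1 CPM in wt larvae. The change of -1.94 on the log2 scale (edgeR adjusted p = 3.25e-14, standard error 0.18) went with the labels. Passing means an adjusted p no higher than 0.05 in edgeR's quasi-likelihood test, and every log2 fold change has crispants on top. Among all genes tested, 8.98% were called higher and 7.44% lower, and the median log2 fold change was 0.0046. When libraries were scaled by their totals alone, 2355 genes were higher and 1000 lower, against 1839 and 1524 with TMM factors.

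Of the 12 coagulation rows, 5 rose in crispants, namely *plg*, *f5*, *f2*, *f10* and *serpinc1*, by 1.21-fold to 1.34-fold. The 3 fibrinogen chains, *f9b* and the 3 copies of *f7* did not pass. This is 41.7% of the rows called higher, against 8.98% of all genes. Like the gene lists below, these rows were chosen with earlier results of these data known, so the contrast is a description. None of the 12 rows was called lower by edgeR, DESeq2 or limma-voom. However, 1 row, *fgg*, was lower at an unadjusted p under 0.05 with each of these tools. The median log2 fold change of the 12 rows was 0.30. In 6 rows both crispant libraries lay above both wt libraries, and in 3 rows both lay below, which is 50% and 25% of the rows, against 28.1% and 26.5% of all genes. With DESeq2, the share called higher was 33.3% of the rows, against 5.92% of all genes. Fewer rows were called higher when any 1 library was left out, and so were fewer of all genes.

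**Figure D1:**
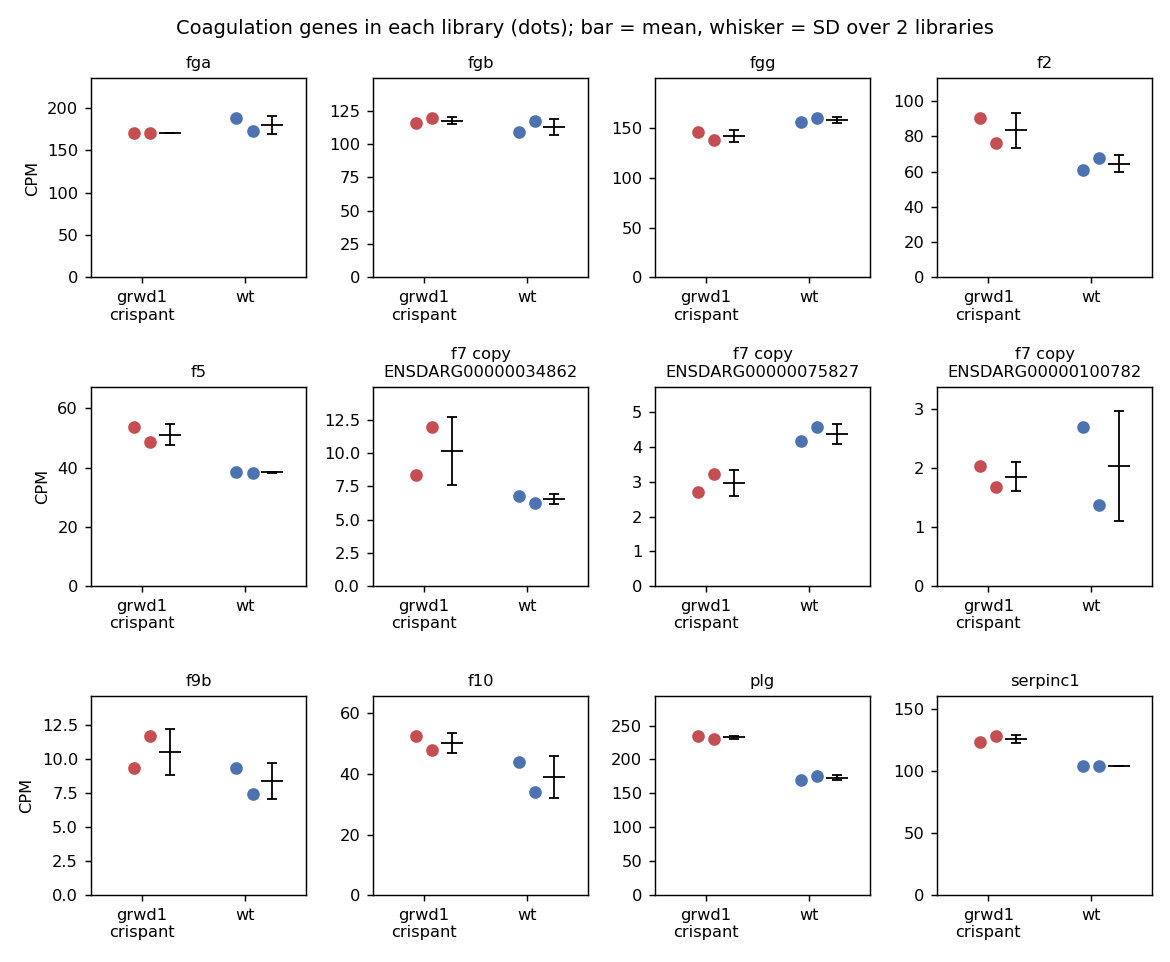
Expression of each of the 12 coagulation rows in CPM (vertical axes, each starting at 0) in the 2 *grwd1* crispant libraries (left) and the 2 wt libraries (right). Dots are libraries, and the bar with its whisker is the mean with the SD over 2 libraries. For *plg* the crispant libraries sit at 234 and 231 CPM, above the wt libraries at 170 and 176, whereas for *fgb* the groups overlap.

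Thrombin generation was represented by *f2*, which encodes prothrombin, *f10*, which encodes factor X, and *f5*, which encodes the cofactor factor V. *f5* (ENSDARG00000055705) was at 53.65 and 48.65 CPM in crispants, against 38.5 and 38.3 CPM in wt larvae. The crispant libraries were thus both above the wt libraries, which differed from each other by little. The log2 fold change of *f5* was 0.41 (standard error 0.11, 95% interval 0.20 to 0.63, adjusted p = 0.00298 from edgeR). *f2* (ENSDARG00000036041) was at 90.2 and 76.4 CPM in crispants, against 61.1 and 67.9 CPM in wt larvae. Its groups did not overlap, but crispant replicate 2 and wt replicate 2 lay closest to each other. On the log2 scale it was higher by 0.37 (standard error 0.09, 95% interval 0.18 to 0.55, edgeR adjusted p = 0.00225). *f10* (ENSDARG00000088581) was at 52.5 and 48.0 CPM in crispants, against 44.0 and 34.25 CPM in wt larvae, and here the wt libraries were the more spread. On the log2 scale it was higher by 0.36 (standard error 0.11, 95% interval 0.14 to 0.59, adjusted p = 0.0141 from edgeR).

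Each of these calls was lost when at least 1 library was left out, and the size of the *f10* change moved most. Leaving out a library also weakens the test, so a lost call alone does not show that a change rests on that library. Without crispant replicate 1, *f5* had a log2 fold change of 0.34 (edgeR adjusted p = 0.0697) and *f2* one of 0.24 (adjusted p = 0.142 from edgeR). Without wt replicate 1, *f2* stood at 0.29 (adjusted p = 0.0910 from edgeR). *f10* did not pass with DESeq2 (0.35, adjusted p = 0.112), in edgeR without crispant replicate 1 (0.30, adjusted p = 0.134), in edgeR without wt replicate 2 (0.19, adjusted p = 0.430) or at a threshold of 0.01.

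The upstream proteases had low counts and gave wide intervals. Factor VII is the protease that tissue factor activates, and factor IX is the protease missing or defective in human hemophilia B. The *f7* copy ENSDARG00000034862 was at 8.325 and 11.9 CPM in crispants, against 6.79 and 6.26 CPM in wt larvae. Both crispant libraries were higher, yet the copy just missed the threshold, with a log2 fold change of 0.63 (95% interval 0.17 to 1.09, adjusted p = 0.0506 from edgeR). It passed when libraries were scaled by totals alone (0.70, adjusted p = 0.0281 from edgeR). The same held with no filter on low counts and with at least 10 counts in every library. It did not pass with DESeq2 (0.62, adjusted p = 0.197) or with limma-voom (0.59, adjusted p = 0.0711). Its size depended on the crispant library, at 0.87 without crispant replicate 1 and 0.35 without crispant replicate 2. The copy ENSDARG00000075827 was at 2.71 and 3.23 CPM in crispants, against 4.16 and 4.56 CPM in wt larvae, the opposite order. Its log2 fold change of -0.56 had a 95% interval of -1.25 to 0.14 (adjusted p = 0.309 from edgeR). The copy ENSDARG00000100782 was at 2.03 and 1.68 CPM in crispants, against 2.69 and 1.37 CPM in wt larvae, so the groups overlapped. Its log2 fold change of -0.12 had a 95% interval of -1.095 to 0.86. *f9b* (ENSDARG00000029493) was at 9.31 and 11.7 CPM in crispants, against 9.35 and 7.465 CPM in wt larvae, which also overlapped, with a log2 fold change of 0.32 (95% interval -0.11 to 0.75, adjusted p = 0.359 from edgeR).

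In the zebrafish RefSeq annotation of the assembly GRCz12tu, used here for gene order only, *f7l*, *f7*, *f7i* and *f10* follow one another with no other protein-coding gene between them. The name table does not say which of the 3 gene IDs is *f7*, *f7i* or *f7l*, and how multi-mapping reads were handled is not given in the sources used here, so values of the copies are uncertain where their sequences are alike. *fga* and *fgb* are neighbors with 1 protein-coding gene between them, and *fgg* lies apart.

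**Figure D2:**
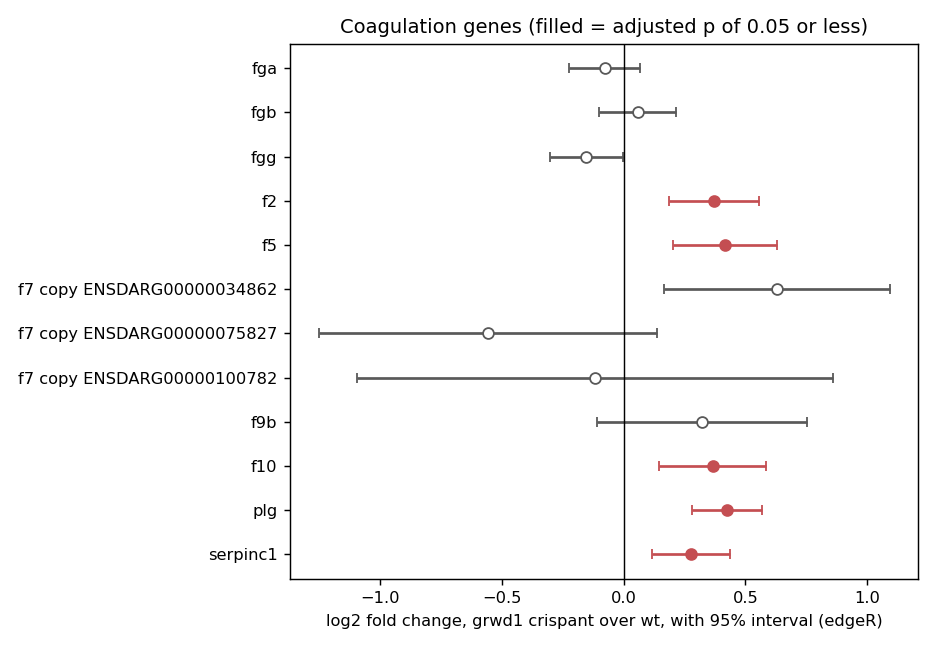
The log2 fold change of each coagulation row, *grwd1* crispants over wt (horizontal axis), with its 95% interval from edgeR. Filled points are genes that passed. The 5 filled rows lie between 0.28 and 0.42, the fibrinogen chains lie between -0.15 and 0.06 with narrow intervals, and the copies of *f7* have the widest intervals.

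The fibrinogen chains had standard errors close to that of *plg*, and none of them passed. *fga* (ENSDARG00000020741), the alpha chain gene, was at 170 and 171 CPM in crispants, against 187.5 and 172.5 CPM in wt larvae. *fgb* (ENSDARG00000008969), the beta chain gene, was at 116 and 119 CPM in crispants, against 109 and 117 CPM in wt larvae. *fgg* (ENSDARG00000037281), the gamma chain gene, was at 146 and 138 CPM in crispants, against 156 and 160 CPM in wt larvae. The crispant libraries were thus below the wt libraries for *fga* and *fgg*, and the groups overlapped for *fgb*. The log2 fold changes were -0.08 for *fga* (95% interval -0.225 to 0.07), 0.06 for *fgb* (-0.10 to 0.22) and -0.15 for *fgg* (-0.30 to -0.0033). The adjusted p-values from edgeR were 0.540, 0.706 and 0.169. As folds, the upper ends of these intervals were 1.05 for *fga*, 1.16 for *fgb* and 0.998 for *fgg*. None of the chains passed under any of the 13 alternatives tried.

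Within a library, the chains can be compared without any scaling. The log2 ratio of *fgg* to *fgb* CPM was 0.335 and 0.21 in crispants, against 0.52 and 0.45 in wt larvae, and that of *fga* to *fgb* was 0.56 and 0.52 in crispants, against 0.79 and 0.56 in wt larvae. Both ratios were lower in both crispant libraries, by 0.21 and 0.14 on average. For *fga* to *fgb*, crispant replicate 1 (0.558) and wt replicate 2 (0.561) were nearly equal. The ratio of *fga* to *fgg* overlapped between the groups. An exact permutation test of 2 against 2 libraries cannot give a two-sided p below 0.333, so these ratios stand as values.

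Fibrinolysis and inhibition were represented by *plg*, which encodes plasminogen, and *serpinc1*, which encodes antithrombin. *plg* (ENSDARG00000023111) was at 234 and 231 CPM in crispants, against 170 and 176 CPM in wt larvae, the clearest separation among the 12 rows. Its log2 fold change of 0.42 (standard error 0.07, 95% interval 0.28 to 0.57) had an adjusted p of 4.13e-06 from edgeR. It was the only one of the 5 rows to pass under all 13 alternatives, with log2 fold changes from 0.40 to 0.50 and adjusted p-values up to 0.00239. *serpinc1* (ENSDARG00000042684) was at 124 and 128 CPM in crispants, against 104 CPM in both wt libraries. Both groups were narrow and did not overlap. On the log2 scale it was higher by 0.28 (standard error 0.08, 95% interval 0.12 to 0.43, adjusted p = 0.00878 from edgeR). Its edgeR call was lost without crispant replicate 2 (0.24, adjusted p = 0.0610), without wt replicate 1 (0.27, adjusted p = 0.0866) and without wt replicate 2 (0.28, adjusted p = 0.0830), while its value moved little.

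The balance among the rows was read from the share of their own reads, which does not depend on how libraries are scaled. The fibrinogen chains held 42.8% and 43.3% of all reads of the 12 rows in crispants (exact 95% binomial intervals 42.1% to 43.5% and 42.5% to 44.1%), against 50.6% and 50.5% in wt larvae (49.8% to 51.5% and 49.7% to 51.3%). *plg* held 23.2% and 23.3% in crispants, against 19.1% and 19.8% in wt larvae. *f2*, *f5* and *f10* together held 19.5% and 17.5% in crispants, against 16.1% and 15.8% in wt larvae, and *serpinc1* held 12.3% and 13% in crispants, against 11.6% and 11.7% in wt larvae. The intervals cover counting error only, and those of *serpinc1* overlapped between crispant replicate 1 (11.8% to 12.7%) and both wt libraries (up to 12.2%). The fibrinogen share was thus lower, and the other shares named were higher, in both crispant libraries. Summed over the 9 rows outside fibrinogen, expression was 577 and 561 CPM in crispants, against 441 and 440 CPM in wt larvae. Summed over the fibrinogen chains, it was 432 and 428 CPM in crispants, against 452 and 449 CPM in wt larvae.

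As ratios to *fgg* within a library, all 5 rows that rose stood higher in both crispant libraries. The log2 ratio of *plg* to *fgg* was 0.68 and 0.74 in crispants, against 0.13 and 0.14 in wt larvae. That of *f5* to *fgg* was -1.44 and -1.50 in crispants, against -2.02 and -2.06 in wt larvae. The mean differences were 0.58 for *plg*, 0.57 for *f5*, 0.53 for *f10*, 0.52 for *f2* and 0.43 for *serpinc1*. These rows were picked because they had passed, and *fgg* is the chain with the lowest log2 fold change, so the differences are a description. For *plg*, the difference was 0.50 relative to *fga* and 0.365 relative to *fgb*, and for the mean of the 5 rows relative to the mean of the 3 chains it was 0.43. Between enzyme and inhibitor, the groups overlapped: the log2 ratio of *f2* to *serpinc1* was -0.46 and -0.75 in crispants, against -0.77 and -0.61 in wt larvae. The ratio of *f10* to *serpinc1* overlapped too, while that of *plg* to *serpinc1* was 0.92 and 0.85 in crispants, against 0.71 and 0.76 in wt larvae.

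**Figure D3:**
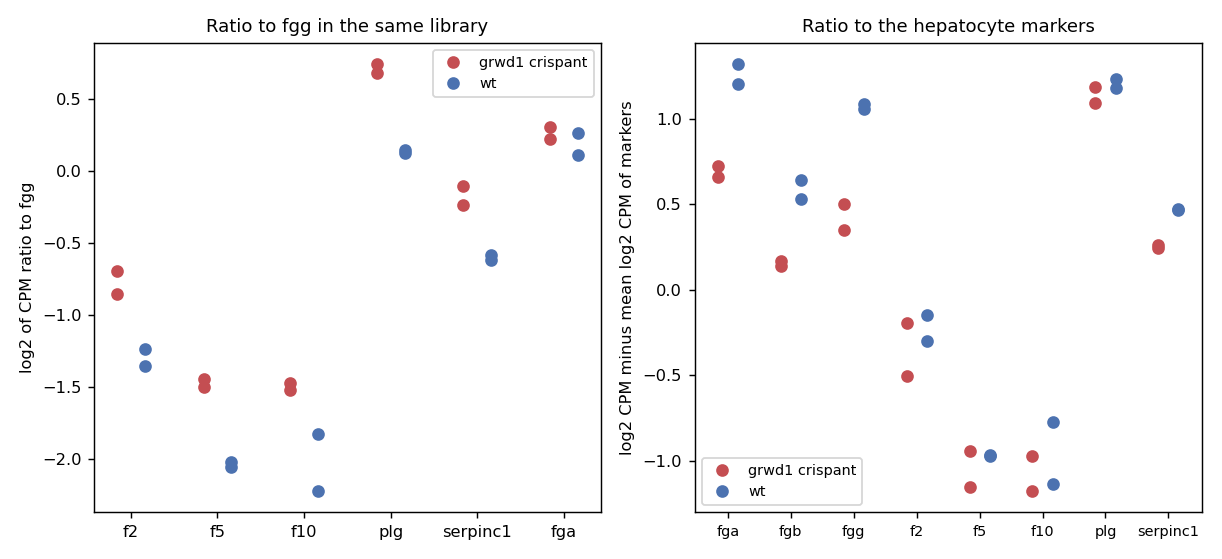
Ratios within each library on a log2 scale, with *grwd1* crispants (red, left of each pair) and wt larvae (blue). The first panel shows CPM relative to *fgg*, where *plg* stands at 0.68 and 0.74 in crispants and at 0.13 and 0.14 in wt larvae; the second shows log2 CPM minus the mean log2 CPM of 26 hepatocyte marker genes, where the fibrinogen chains are lower in both crispant libraries.

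Since whole larvae were sequenced, the rows were set beside other genes of hepatocytes. In such samples, more cells of a type and more RNA per cell cannot be told apart. The 26 rows matched to a list of hepatocyte markers outside coagulation included *fabp10a*, the liver fatty acid binding protein gene, and all 26 were detected in every library, so liver RNA was present in both groups. Of these rows, 18 rose, or 69.2% against 8.98% of all genes, 1 fell and 7 did not pass. The median log2 fold change of the markers was 0.52. Their summed expression was 4389 and 4617 CPM in crispants, against 3157 and 3117 CPM in wt larvae. Relative to the mean log2 CPM of these markers, *plg* was at 1.18 and 1.09 in crispants, against 1.18 and 1.23 in wt larvae, and the groups overlapped for *f2*, *f5* and *f10* as well. *serpinc1* stood at 0.26 and 0.24 in crispants, against 0.47 in both wt libraries. The mean of the fibrinogen chains stood at 0.46 and 0.38 in crispants, against 0.97 and 0.98 in wt larvae. The *f7* copy ENSDARG00000075827 stood at -5.25 and -5.07 in crispants, against -4.17 and -4.04 in wt larvae, the largest difference of the 12 rows (-1.05). Its counts were low, at 52 in each crispant library against 65 and 83 in wt larvae, and its own change did not pass. The fibrinogen chains, *serpinc1* and this copy were thus lower relative to the markers in both crispant libraries. The markers did not move alike, with log2 fold changes from -0.54 to 1.36 and *fabp10a* at 0.04, so these positions depend on the list. The mean of the markers itself was higher by 0.49 on the log2 scale in crispants, and its part in the values of the 12 rows was not tested.

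The wider coagulation pathway was covered by 62 rows outside the 12, of which 50 could be tested. Of these, 12 rose, or 24.0% against 8.98% of all genes, 38 did not pass, and the median log2 fold change was 0.33. None fell by edgeR or DESeq2, 1 fell by limma-voom, and 2 were lower at an unadjusted p under 0.05 by edgeR. DESeq2, whose own filter left 42 of these genes, called 3 higher, namely *habp2*, *tfpi* and a copy of *itgb3*, which is 7.14% of the list against 5.92% of all genes. In edgeR, the share called higher was 14% of 50 genes without crispant replicate 1 (6.57% of all genes), 5.88% of 51 without crispant replicate 2 (6.51%), 7.84% of 51 without wt replicate 1 (5.98%) and 11.8% of 51 without wt replicate 2 (6.49%). The share was thus no longer above that of all genes without crispant replicate 2, and was within 2 percentage points of it with DESeq2 and without wt replicate 1. Each of the 12 calls other than *habp2* was lost when at least 1 library was left out.

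Among other plasma factors and inhibitors, 4 of 18 rose, or 22.2% against 8.98% of all genes. The median log2 fold change of this list was 0.14. Its summed expression was flat, at 518 and 519 CPM in crispants, against 517 and 519 CPM in wt larvae. *proza* and *serpina10a*, the largest parts of this sum, were lower in both crispant libraries, so the flat sum does not mean that its rows were unchanged. *habp2*, which encodes a plasma protease that binds hyaluronan, was at 17.7 CPM in both crispant libraries, against 8.84 and 9.66 CPM in wt larvae (log2 fold change 0.94, standard error 0.18, adjusted p = 6.48e-05 from edgeR), and passed under all 13 alternatives. *serpinf2a*, a gene for the plasmin inhibitor alpha-2-antiplasmin, had a log2 fold change of 0.49, *a2ml*, an alpha-2-macroglobulin-like gene, one of 0.36, and *f8*, the cofactor of factor IXa, one of 1.04. None of these passed with DESeq2 (adjusted p-values 0.0933, 0.141 and 0.150), and *f8* did not pass with the replicate block (1.02, edgeR adjusted p = 0.0570) or with limma-voom (adjusted p = 0.0529) either. For protein Z and the inhibitor that works with it, none of the 4 rows passed in edgeR. *proza* was at 119 and 127 CPM in crispants, against 140 and 137 CPM in wt larvae (adjusted p = 0.124 from edgeR). *serpina10a* was at 152 and 146 CPM in crispants, against 168 and 171 CPM in wt larvae (log2 fold change -0.19, adjusted p = 0.0664 from edgeR), and was the 1 row of the list that limma-voom called lower. The other protein Z row, *proz*, was at 6.24 and 7.145 CPM in crispants, against 5.25 and 5.71 CPM in wt larvae, and *serpina10b* was at 8.74 and 10.1 CPM in crispants, against 11.1 and 8.89 CPM in wt larvae. The copies thus did not share a direction in every library.

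The vitamin K cycle and factor secretion gave 2 of 7 higher, or 28.6% against 8.98% of all genes. These were *lman1*, which encodes a cargo receptor for factors V and VIII in the endoplasmic reticulum, with a log2 fold change of 0.55, and *nqo1*, which encodes a quinone reductase, with one of 0.37. The calls of both were lost with DESeq2 (adjusted p-values 0.144 and 0.0599), and *lman1* stood at 0.36 without wt replicate 1 (edgeR adjusted p = 0.353). *mcfd2*, whose product is the partner of LMAN1, did not pass (-0.24), and neither did *ggcx*, which encodes the vitamin K-dependent carboxylase (0.24).

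Of 25 vessel wall, thrombocyte and tissue genes tested, 6 rose, or 24% against 8.98% of all genes. *tfpi*, which encodes the inhibitor of the tissue factor pathway, was at 24.9 and 28.0 CPM in crispants, against 18.5 and 18.6 CPM in wt larvae (log2 fold change 0.51, adjusted p = 0.00663 from edgeR). Both copies of *itgb3*, an integrin subunit of thrombocytes and other cells, rose, with log2 fold changes of 1.17 (ENSDARG00000056767) and 1.65 (ENSDARG00000045070). The others were *vwf* (1.12), which encodes von Willebrand factor, a copy of *f2rl1* (ENSDARG00000077540, 1.23), a protease-activated receptor gene, and *serpine2* (0.53). None of these others passed with DESeq2 (adjusted p-values 0.0987, 0.103 and 0.175), and *serpine2* did not pass with limma-voom either (adjusted p = 0.0584). *itgb3* ENSDARG00000045070 did not pass with DESeq2 (adjusted p = 0.0977), and its counts were low, at 36 and 62 in crispants, against 20 and 10 in wt larvae. The call of *tfpi* was lost without crispant replicate 2 (edgeR adjusted p = 0.107), and that of *vwf* without crispant replicate 2 (0.65, edgeR adjusted p = 0.451) or wt replicate 2 (0.97, edgeR adjusted p = 0.117). With single libraries left out, *itgb3* ENSDARG00000045070 ranged from 1.04 without crispant replicate 2 to 2.36 without wt replicate 1, and *f2rl1* ENSDARG00000077540 from 0.78 without wt replicate 1 to 1.93 without wt replicate 2. Endothelial markers, whose cells express *vwf*, summed to 95.3 and 92.45 CPM in crispants, against 76.9 and 86.1 CPM in wt larvae, and edgeR, DESeq2 and limma-voom called none of the 6, with 1 higher at an unadjusted p under 0.05 by edgeR. Thrombocyte markers were low, with a summed level of 7.285 and 4.60 CPM in crispants, against 5.96 and 4.28 CPM in wt larvae, and *mpl* at 0 in 3 of 4 libraries. None of the 4 that could be tested passed with edgeR, DESeq2 or limma-voom, or at an unadjusted p under 0.05.

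A wider list of regulators, not limited to those of clotting factor genes, held transcription regulator genes of the liver and genes of the interleukin 6 signal. Of 22 tested, 10 rose, or 45.5% against 8.98% of all genes, and 12 did not pass. The median log2 fold change was 0.46. DESeq2 called 7 of the regulators higher, and 5.92% of all genes. How many regulators its own filter left is not given here, so no share of the list is set beside that percentage. None fell by edgeR, DESeq2 or limma-voom, and 1 was lower at an unadjusted p under 0.05 by edgeR. *hnf4a*, a nuclear receptor gene of liver, gut and kidney, was at 19.7 and 19.1 CPM in crispants, against 12.1 and 12.2 CPM in wt larvae (log2 fold change 0.68, standard error 0.17, adjusted p = 0.00194 from edgeR). In mammals, interleukin 6 drives fibrinogen transcription through STAT3. Of the listed genes tied to that signal or to C/EBP factors, *stat3* (0.49), *cebpb* (0.44), *il6st* (0.35), which encodes the shared receptor subunit, and *socs3* (ENSDARG00000025428, 0.65), a feedback inhibitor, rose, while the other copy of *socs3* (0.05), *cebpd* (0.05, edgeR adjusted p = 0.683) and *il6r* (0.51, edgeR adjusted p = 0.313), the receptor gene, did not pass. *il6* had 2 counts in 1 crispant library and 0 counts in the other libraries. *nr0b2*, a repressor of bile acid synthesis, had the largest value of the list (2.94), and *foxa3* (0.76) and *cebpa* (0.31) rose as well. *foxa3*, *cebpa* and *il6st* did not pass with DESeq2 (adjusted p-values 0.219, 0.125 and 0.105). *foxa3* stood at 0.38 without wt replicate 1 and 0.46 without crispant replicate 2, and at 1.30 without wt replicate 2, and *il6st* at 0.23 without crispant replicate 1. In contrast, *hnf4a*, *stat3*, *cebpb*, *socs3* and *nr0b2* passed under all 13 alternatives. Several of these regulators are also expressed in the gut, and enterocyte markers were higher in the same libraries. Of 12 tested, 11 rose, or 91.7% against 8.98% of all genes. The summed level was 1977 and 2047 CPM in crispants, against 1161 and 1213 CPM in wt larvae. Exocrine pancreas markers were lower, with 8 of 10 that fell, or 80% against 7.44% of all genes. Their summed level was 3981 and 4333 CPM in crispants, against 7477 and 7235 CPM in wt larvae. The part of these tissues in the values was not tested.

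**Figure D4:**
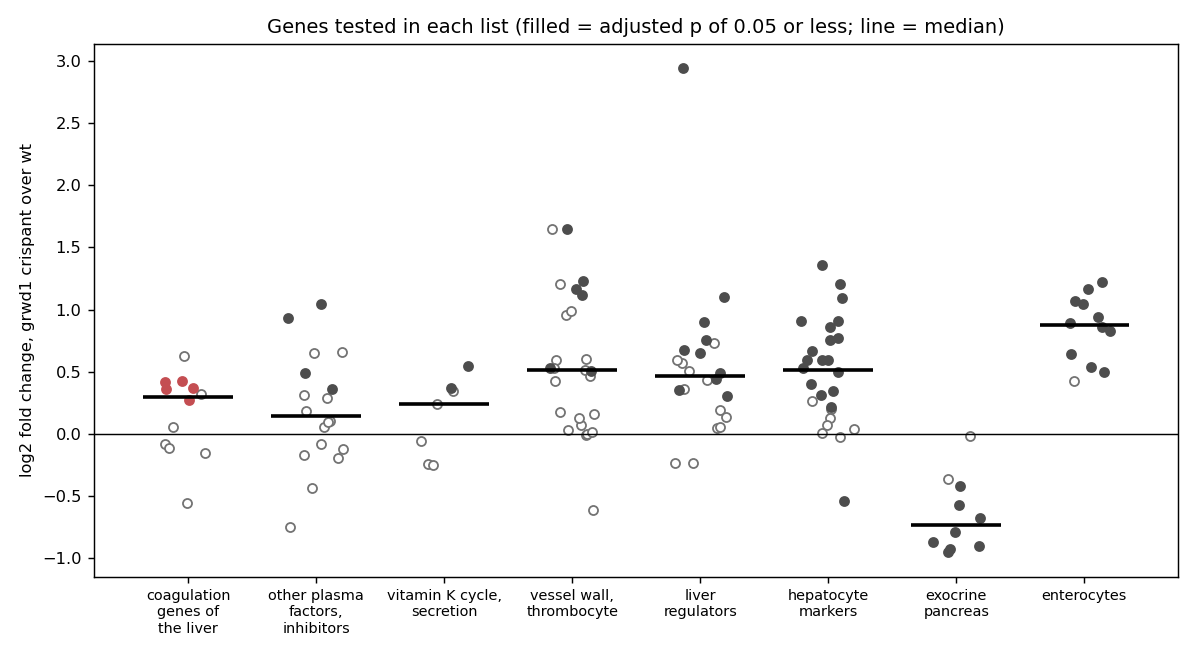
The log2 fold change, *grwd1* crispants over wt (vertical axis), of every gene tested in each list, with the median as a line. Filled points are genes that passed. The median is 0.30 for the 12 coagulation rows and 0.52 for hepatocyte markers. It is 0.14 for other plasma factors and inhibitors, 0.24 for the vitamin K cycle and secretion, and 0.52 for vessel wall and thrombocyte genes.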

How the data were processed

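Libraries came from a stranded total RNA kit, which the labels call both polyA-enriched and rRNA-depleted. The submitters' processing notes list Trimmomatic 0.39, HISAT2, featureCounts and GRCz11. What the authors deposited is a table of whole counts per gene, with no normalization. Neither the gene annotation used nor the handling of strand and of multi-mapping reads is stated. Of 32667 lines, 147 exact repeats were dropped. Symbols came from a name table that matched 29201 genes. Names written in capitals are shown in lower case, and list names whose copy letter the table lacks were matched to every row of that name.

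The test was edgeR 4.0.16 (filterByExpr, TMM factors, glmQLFit and glmQLFTest, in R 4.3.3), group being the only term, with Benjamini-Hochberg adjustment over 20479 genes. The standard error is the log2 fold change divided by the square root of F. The alternatives were DESeq2 1.42.0, limma-voom (limma 3.58.1), RLE factors, TMM factors that ignore the 50 most abundant genes, plain library totals, no filter, at least 10 counts in every library, a threshold of 0.01, a replicate block, and each library left out. The edgeR code was tested on simulated data.

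The members and gene lists were chosen with earlier results of these data known. The rule placed *f7i* and *f7l* among other genes, but the name table gives all 3 IDs the symbol of *f7*, so all were counted as members. All members are named, and other coagulation genes and regulators are named where they passed, except for an item that is not reported here, and those that did not pass were picked after their values were seen (*proza*, *serpina10a*, *mcfd2*, *ggcx*, *proz*, *serpina10b*, *cebpd*, *il6r*, *il6*, *mpl*, the second *socs3*). Transcript lengths and sequences of the members were not used here, so levels are not compared between genes.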

Additional observations from a re-analysis of the deposited data

How the results depend on the processing

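The 5 coagulation rows called higher became 5 with limma-voom, RLE factors or the replicate block, 4 with DESeq2 and 6 under library totals alone. These are 41.7%, 33.3% and 50% of the rows, against 8.73% to 8.92%, 5.92% and 11.5% of all genes. Fewer rows were called higher when any 1 library was left out. The *f7* copy ENSDARG00000100782 changed sign, with log2 fold changes of -0.53 to 0.43 when a library was left out. Among other coagulation genes, the 12 of 50 called higher became 3 of 42 tested with DESeq2, 4 at a threshold of 0.01 and 3 to 7 of 50 or 51 tested with a library left out, and limma-voom called 1 lower. The share of all genes called higher at a threshold of 0.01 is not given here, so the count of 4 cannot be compared with it. Outside the 12 rows, *habp2*, *hnf4a*, *stat3*, *cebpb*, *socs3* and *nr0b2* kept their call under all 13 alternatives, and each other pathway gene or regulator named as higher lost it under at least 1. With DESeq2, 1107 genes of the whole table were higher and 1017 lower, against 1839 and 1524 with edgeR. Deviations of same-numbered libraries had a correlation of -0.0067 over all genes tested, so no shared shift was seen. This value cannot show whether same-numbered libraries were made together. The cause of these differences was not tested.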

Other observations

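The hepatocyte markers outside coagulation did not move as a block. The complement gene *c9* had a log2 fold change of 1.36 and *tfa*, the transferrin gene, one of 1.21, whereas *fabp10a*, at 346 and 353 CPM in crispants, against 338 and 341 CPM in wt larvae, had one of 0.04 (adjusted p = 0.755 from edgeR). *hgd*, which encodes an enzyme of tyrosine breakdown, stood at 0.0047, and *hpda*, of the same pathway, fell by 0.54 on the log2 scale (adjusted p = 1.07e-06 from edgeR). These genes were picked after their values were seen.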
